A study of Mus musculus with 9 samples.

Results

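The collagen genes were taken as every symbol of the feature list written as Col, a number, a and a number, such as Col1a1 or Col4a2. There were 44 such genes among the 32285 of the list. By the assembly their products form, 11 encode chains of fibril-forming collagens, 6 chains of the type IV network of basement membranes, 6 chains of beaded filaments, 9 chains that attach to fibrils, 2 multiplexins, 3 short-chain network collagens, 4 transmembrane collagens and 3 fell into none of these classes. Their transcripts were counted in whole testes of C57BL/6 mice at postnatal day 24 (PND24), a stage at which round spermatids (RS) have appeared. The study compared 4 control mice, some littermates of the knockouts and some not, with 2 NELF-B conditional knockout (cKO) mice and 3 TDP-43 cKO mice. Each cKO mouse carried 1 floxed and 1 null allele of the gene (loxP sites flank exons 1 to 4 in Nelfb and exon 3 in Tardbp) and the Stra8-iCre transgene, whose Cre acts in spermatogonia (SG) and thus in the germ cells that arise from them. The somatic cells described here were not the target of Cre but carried the null allele in the cKO mice, and the allele state of the control mice is not given in the labels. Every testis was dissociated with collagenase, trypsin and hyaluronidase before droplet capture, and 1 library was made per mouse with the 10x Genomics 3′ chemistry.

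Collagens are secreted proteins whose chains wind around each other in a helix before they are assembled outside the cell. Types I and III build the fibrils of connective tissue, type V chains regulate how fibrils start and how thick they grow, and type VI forms beaded filaments beside cells. Type IV chains form the sheet of the basement membrane, the layer that surrounds blood vessels, smooth muscle and each seminiferous tubule. In the tubule wall this layer lies between Sertoli cells, the nurse cells of the germ line, and the peritubular myoid cells outside. Leydig cells, which make testosterone, and fibroblast-like interstitial cells fill the space between tubules.

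UMIs (unique molecular identifiers, each standing for 1 captured transcript 3′ end) were summed per mouse and cell type and are given as UMIs per 1000000 UMIs of that mouse and type (CPM). Since each UMI stands for a 3′ end, values were not divided by gene length, and levels of different genes are compared on this scale only. The libraries held 119203347 to 159407373 UMIs. Clustering and marker genes gave 2232 interstitial, 2934 Leydig, 214 myoid, 3087 Sertoli and 150 endothelial cells, 8617 in all. Of 45132 barcodes kept, 260 occurred in 2 libraries. Myoid cells numbered 7 to 43 per mouse and endothelial cells 9 to 31, so their values rest on few cells. In SG the targeted genes followed the labels, with Nelfb at 65.7 to 78.0 CPM in the control mice against 4.81 and 5.23 CPM in the NELF-B cKO mice, and Tardbp at 67.5 to 90.4 CPM against 31.5, 36.4 and 37.3 CPM in the TDP-43 cKO mice. In somatic cells, too, Nelfb of the NELF-B cKO mice lay below all control mice, at 9.01 and 11.3 CPM against 18.8 to 29.9 CPM in Leydig, 15.7 and 23.9 against 34.4 to 43.8 CPM in interstitial, 5.94 and 10.5 against 20.2 to 29.5 CPM in Sertoli and 20.5 and 11.0 against 35.2 to 60.0 CPM in endothelial cells. Tardbp of the TDP-43 cKO mice stood at 73.7 to 80.6 CPM in Sertoli cells against 94.5 to 116 CPM in the control mice, and at 48.8 to 54.5 against 60.3 to 100.0 CPM in interstitial cells, whereas it overlapped in Leydig (49.6 to 63.1 against 61.1 to 86.4 CPM), endothelial (51.6 to 73.0 against 66.5 to 77.9 CPM) and myoid cells (22.6 to 62.1 against 49.7 to 68.8 CPM). Free RNA, read from barcodes with 1 to 100 UMIs, held 252 to 304 CPM of collagen transcripts in the control libraries, 372 and 819.7 CPM in the NELF-B cKO libraries and 1226, 385 and 417 CPM in the TDP-43 cKO libraries.

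Collagen transcripts were most abundant in the cells outside the tubules. Summed over the 44 genes, interstitial cells held 8368 to 10823 CPM over the 9 mice, with a median of 9653 CPM. Myoid cells of the 8 mice with at least 10 such cells ranged from 2386 to 12642 CPM. Endothelial cells held 2891 to 4529 CPM in 8 mice, and Leydig cells held 1420 to 2323 CPM. Of the 5 types compared, Sertoli cells held the least, at 328 to 708 CPM, a level that overlapped the free RNA of the same libraries. Interstitial values lay above every Leydig, endothelial and Sertoli value, whereas the myoid range covered the endothelial and the interstitial ranges. The highest myoid value, 12642 CPM, was that of 1 mouse, NELF-B cKO replicate 2. Myoid cells of the control mice held 2386 to 7991 CPM, below every interstitial value, and those of the TDP-43 cKO mice 4913 to 9113 CPM. The plot of summed collagen by cell type shows this order mouse by mouse.

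**Figure D1:**
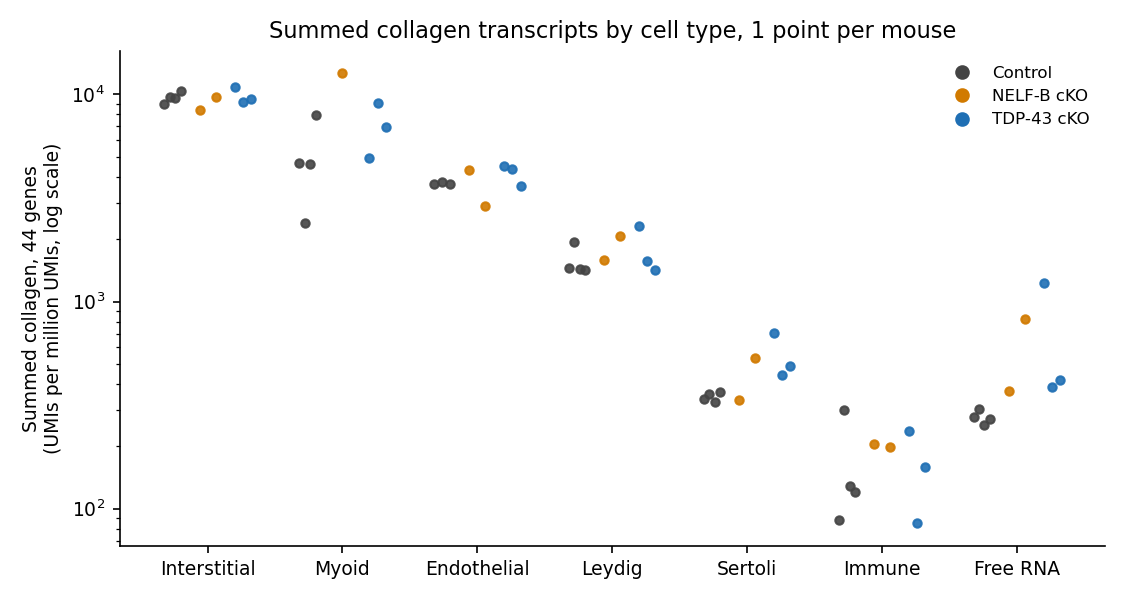
Summed level of the 44 collagen genes (CPM, log axis) in the 5 somatic cell types, immune cells and free RNA, with 1 point per mouse and genotypes in separate colours, for mice with at least 10 cells of the type. Interstitial cells lie between 8368 and 10823 CPM in all 9 mice, and Sertoli cells between 328 and 708 CPM.

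The kinds of collagen differed between the types. Fibril-forming chains made up 53.9% to 63.7% of the collagen UMIs of interstitial cells and 45.1% to 60.8% of those of Leydig cells. Basement membrane chains made up 54.2% to 69.8% in endothelial cells and 42.3% to 64.7% in myoid cells, against 19.3% to 29.2% in interstitial cells. Multiplexins took 33.1% to 48.3% of the collagen UMIs of Sertoli cells. Since cell types were set side by side and not tested, these are descriptions of ranges over mice.

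Interstitial cells had the widest collagen repertoire, with 14 of 44 genes at a median of 100 CPM or more over the control mice and 19 genes highest there among the 5 types. The mean of Col1a2 in the control mice was 2599 ± 322 CPM (SD, n = 4). By mouse, Col1a2 stood at 2375, 2399, 2556 and 3066 CPM in the control mice, 2102 and 2699.8 CPM in the NELF-B cKO mice and 3135, 2696 and 2639 CPM in the TDP-43 cKO mice. Col3a1, the single chain of type III collagen, stood at 1439, 1823, 1855 and 1891 CPM in the control mice, 1249.9 and 1449 CPM in the NELF-B cKO mice and 1877, 1677 and 1834 CPM in the TDP-43 cKO mice. Control replicate 1 and both NELF-B cKO mice lay below the other 6 mice for Col3a1. Col1a1, the partner of Col1a2 in type I collagen, stood at 1340.1, 1304, 1097 and 1215 CPM in the control mice, 841 and 1245 CPM in the NELF-B cKO mice and 1416, 1147 and 1195 CPM in the TDP-43 cKO mice, and NELF-B cKO replicate 1 was the lowest mouse. Type V chains were lower, with Col5a1 at 131 to 182 CPM and Col5a2 at 118 to 128 CPM in the control mice.

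Among beaded filament and multiplexin genes, Col6a1, Col6a2 and Col15a1 had their highest control median in interstitial cells, Col18a1 in endothelial cells and Col6a3 in myoid cells. Col6a1, one of the chains of type VI collagen, stood at 497, 468, 424 and 571 CPM in the control mice, 430.0 and 560.1 CPM in the NELF-B cKO mice and 598, 483 and 531 CPM in the TDP-43 cKO mice. The genotypes overlapped for this gene. Its partners Col6a2 (192 to 247 CPM) and Col6a3 (161 to 197 CPM) were lower in the control mice. Col15a1, a multiplexin found at basement membranes, stood at 347, 420.2, 469.9 and 419.7 CPM in the control mice, 397 and 516 CPM in the NELF-B cKO mice and 516, 373 and 418 CPM in the TDP-43 cKO mice. It too overlapped between the genotypes. The free RNA of the control libraries held 8.31 CPM of Col1a2 and 1.51 CPM of Col15a1 at the median, far under these levels.

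Endothelial cells, which line vessels, were marked by the chains of the vascular basement membrane, and 5 members reached a control median of 100 CPM. Col4a1 stood at 1008, 981, 1187 and 1242 CPM in the control mice, 1382 and 982 CPM in the NELF-B cKO mice and 1324, 1289 and 956 CPM in the TDP-43 cKO mice. Its partner Col4a2 stood at 1061, 899, 1211 and 1151 CPM in the control mice, 1295 and 839 CPM in the NELF-B cKO mice and 1103, 1268 and 887 CPM in the TDP-43 cKO mice. Both genes lay between 839 and 1382 CPM in all 9 mice, control replicate 1 with 9 cells included, and the genotypes overlapped. Col18a1, a multiplexin whose end fragment is endostatin, was less even, at 311, 868, 336 and 326 CPM in the control mice, 271 and 353 CPM in the NELF-B cKO mice and 271, 416 and 347 CPM in the TDP-43 cKO mice. Control replicate 2 lay well above the other 8 mice. Col15a1 stood at 354, 78.2, 282 and 438 CPM in the control mice, 312 and 254 CPM in the NELF-B cKO mice and 417, 276 and 278 CPM in the TDP-43 cKO mice, with control replicate 2 the lowest mouse. Col1a2, the fibril-forming gene among the 5, stood at 214, 309, 264 and 129.9 CPM in the control mice, 338 and 33.1 CPM in the NELF-B cKO mice and 525, 388 and 371 CPM in the TDP-43 cKO mice. The endothelial cells also held UMIs of interstitial marker genes, as given with the genotype comparison. In the 3 control mice with at least 10 cells, 6 myoid markers summed to 507 to 2467 CPM. There 5 pericyte and vascular smooth muscle genes summed to 746 to 880 CPM. The part of these genes in the collagen levels was not tested.

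The cells named myoid carried both network and fibril chains and varied most between mice. Of these 214 cells, 165 lay in a cluster that also held pericyte and vascular smooth muscle genes, as given below. The name thus does not stand for peritubular cells alone. Col4a1 stood at 842, 606, 882 and 1295 CPM in the control mice, 1463 and 1004 CPM in the NELF-B cKO mice and 948, 1065 and 977 CPM in the TDP-43 cKO mice. Col4a2 stood at 643, 577, 644 and 1008 CPM in the control mice, 841 and 963 CPM in the NELF-B cKO mice and 809.5, 839 and 708 CPM in the TDP-43 cKO mice. Both chains were present in every mouse, but the next pair of type IV chains was not. Col4a4 stood at 964, 9.94, 644 and 1244 CPM in the control mice, 2084 and 1649.7 CPM in the NELF-B cKO mice and 403, 2093 and 1368 CPM in the TDP-43 cKO mice, and Col4a3 at 429, 0, 444 and 731 CPM in the control mice, 1682 and 1316 CPM in the NELF-B cKO mice and 243, 1427 and 911 CPM in the TDP-43 cKO mice. Control replicate 2 had 9.94 CPM of Col4a4 and no UMI of Col4a3 in 10 cells.

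The myoid cells fell into 2 clusters with different collagen genes. The larger, of 165 cells, held the pericyte and vascular smooth muscle genes Rgs5 (1496 CPM), Notch3 (353 CPM), Higd1b (217 CPM), Mcam (366 CPM) and Cspg4 (249.8 CPM), beside Acta2 (15022 CPM). In the smaller, of 49 cells, Rgs5 and Higd1b were at 0, Notch3 at 18.5, Mcam at 118 and Cspg4 at 85.1 CPM. The smaller cluster also held interstitial markers, with Dcn at 814 CPM against 30.1 CPM in the larger, Pdgfra at 454 against 13.5 CPM and Tcf21 at 352 against 38.9 CPM. Lum was alike in both, at 7.40 against 7.14 CPM. Of the myoid markers the smaller cluster held Acta2 at 6656, Myh11 at 3219, Tagln at 1492, Cnn1 at 385, Actg2 at 196 and Pdgfrb at 16.7 CPM. The larger held 15022, 4135, 7829, 349.7, 476.6 and 178 CPM of them. With finer clustering, at resolution 1.2, a cluster of 53 cells that had Col4a3 and Col4a4 among its 10 leading genes was named interstitial and not myoid. Over all mice the smaller cluster had 3754 CPM of Col4a4 against 45.2 CPM in the larger, and 2554 CPM of Col4a3 against 20.6 CPM. Col1a1 was at 1053 CPM in the smaller cluster and 136 CPM in the larger, and Col6a1 at 642 CPM against 19.8 CPM. The larger cluster had the higher level of Col18a1, at 320.4 CPM against 3.70 CPM, and of Col19a1, a chain that attaches to fibrils, at 84.9 CPM against no UMI. Col4a1 differed far less, at 841 CPM in the larger and 1427 CPM in the smaller. Collagen genes and Nelfb and Tardbp were left out of the genes used to cluster, but the cells were the same, so these cluster values are descriptions. Cells of the smaller cluster numbered 1, 0, 4 and 5 in control, 3 and 10 in NELF-B cKO and 4, 12 and 10 in TDP-43 cKO mice, so control replicate 2, with no cell of it, was also the mouse without Col4a3.

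Leydig cells shared the leading genes of interstitial cells at lower levels, and 5 members reached a control median of 100 CPM. Col3a1 stood at 414, 649, 453 and 366 CPM in the control mice, 434 and 686 CPM in the NELF-B cKO mice and 737, 392 and 364 CPM in the TDP-43 cKO mice. Col1a2 stood at 303, 359, 259.7 and 213 CPM in the control mice, 348 and 508 CPM in the NELF-B cKO mice and 532, 285 and 277 CPM in the TDP-43 cKO mice. In both genes TDP-43 cKO replicate 1 and NELF-B cKO replicate 2 were the highest mice. Those 2 libraries also had the most collagen in free RNA, with 245 and 153 CPM of Col1a2 there. The part of free RNA in this order of mice was not tested. The summed level of 4 interstitial marker genes in Leydig cells was highest in the same 2 mice, at 962 and 1083 CPM against 531 to 759.6 CPM in the other 7, and its part in these values was not tested. Col4a1 (109.5 to 208 CPM), Col4a2 (91.4 to 149 CPM) and Col6a1 (89.1 to 149.6 CPM) completed the group over the 9 mice. Outside the rule for named genes, Col26a1 had its highest control median in Leydig cells among all cell types named, at 96.5, 121, 69.1 and 82.8 CPM in the control mice, 71.5 and 75.4 CPM in the NELF-B cKO mice and 91.0, 70.8 and 68.2 CPM in the TDP-43 cKO mice. Interstitial cells held 6.20 to 12.6 CPM of Col26a1 in the same mice, and the ranges of the 2 types did not overlap.

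Sertoli cells had 1 member at a control median of 100 CPM. Col18a1 stood at 111, 137, 141 and 173 CPM in the control mice, 130.0 and 226 CPM in the NELF-B cKO mice and 318, 207 and 236 CPM in the TDP-43 cKO mice. The control libraries held 19.7 CPM of it in free RNA at the median. Among the low genes, Col27a1, a fibril-forming chain known from cartilage, had its highest control median in Sertoli cells (20.1 CPM, against 10.1 CPM in interstitial cells). Col10a1, the network collagen of growth plate cartilage, had 3 UMIs in all cells of the 5 types together. At this depth it was not detectable beyond stray counts. The heat map of leading collagen genes gives each mouse as a column.

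**Figure D2:**
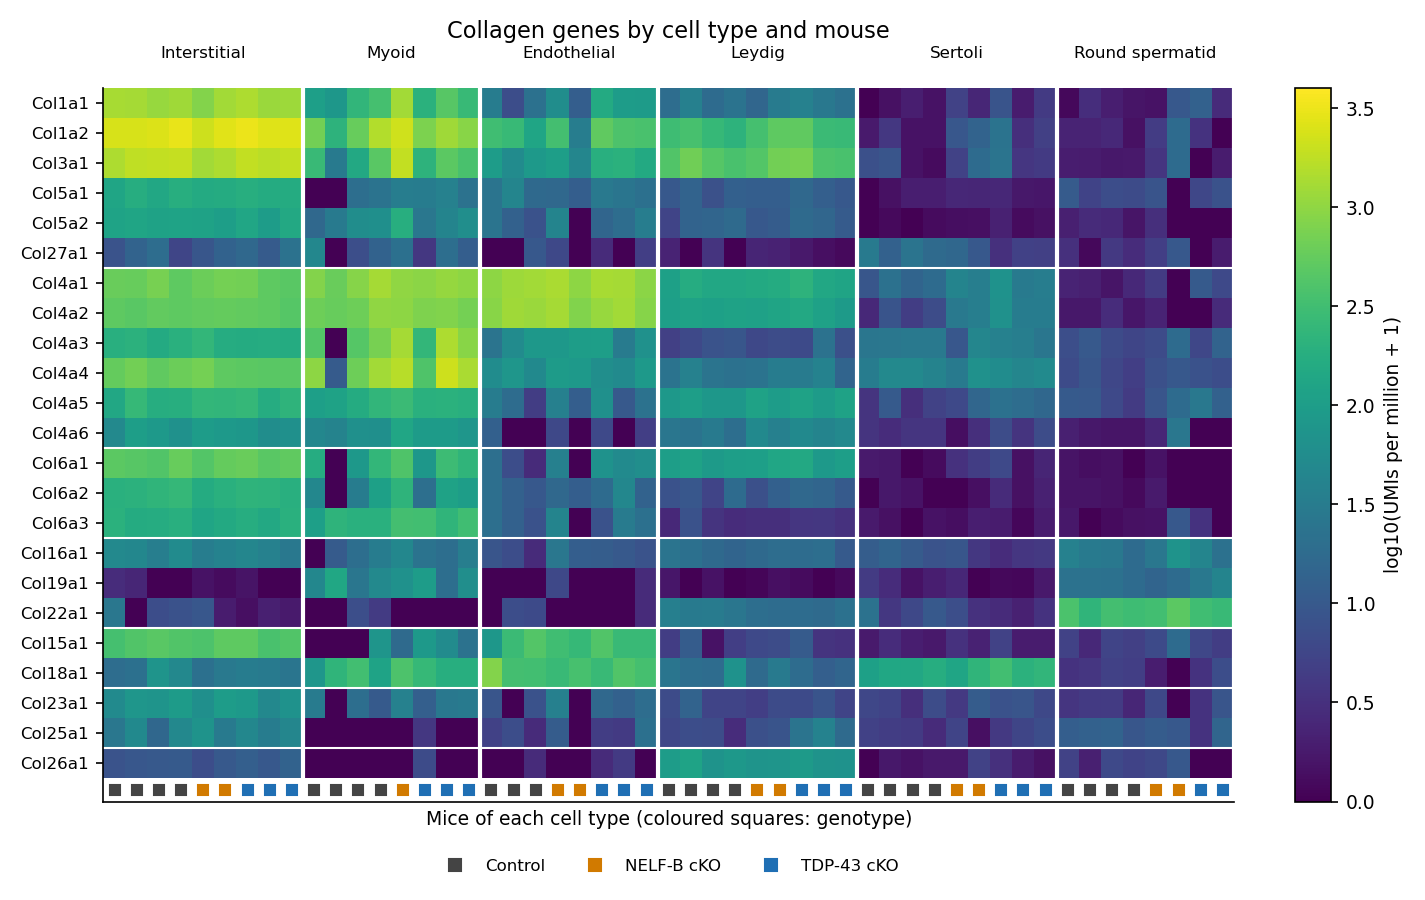
Levels (colour, log10 of CPM plus 1) of the leading collagen genes, ordered by family in rows, in each mouse, with mice as columns grouped by cell type, round spermatids at the right, and coloured squares for genotype. Col1a2, Col3a1 and Col1a1 are brightest in interstitial cells and Col4a1 and Col4a2 in endothelial and myoid cells, and Col22a1 stands out in round spermatids.

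Type IV collagen is made from 6 chains whose genes lie in 3 head-to-head pairs, and the pairs are shown here since levels within a pair can be compared in one cell type. In the GENCODE annotation of build GRCm38.p6, Col4a1 (8:11198423-11312826, minus strand) and Col4a2 (8:11312805-11449287, plus strand) overlap by 22 bases at their starts. Col4a4 (1:82448423-82586849, minus strand) and Col4a3 (1:82586921-82722059, plus strand) are separated by 71 bases, and Col4a6 and Col4a5 on chromosome X by 1308 bases. The windows from 250 bases before to 50 bases after the gene start, from RefSeq, are given 5′ to 3′ on the strand of the gene named. Capitals mark the 78 bases that the Col4a1 and Col4a2 windows share, as reverse complements, and in the Col4a4 window the 71 bases between its start and that of Col4a3.
Col4a1, chr8:11312777-11313076, minus strand: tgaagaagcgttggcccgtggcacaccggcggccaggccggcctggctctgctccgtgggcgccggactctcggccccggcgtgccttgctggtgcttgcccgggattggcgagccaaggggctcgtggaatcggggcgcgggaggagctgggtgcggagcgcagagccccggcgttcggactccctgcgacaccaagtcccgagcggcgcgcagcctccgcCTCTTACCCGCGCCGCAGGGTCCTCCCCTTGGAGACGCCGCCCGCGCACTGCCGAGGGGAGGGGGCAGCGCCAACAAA
Col4a2, chr8:11312555-11312854, plus strand: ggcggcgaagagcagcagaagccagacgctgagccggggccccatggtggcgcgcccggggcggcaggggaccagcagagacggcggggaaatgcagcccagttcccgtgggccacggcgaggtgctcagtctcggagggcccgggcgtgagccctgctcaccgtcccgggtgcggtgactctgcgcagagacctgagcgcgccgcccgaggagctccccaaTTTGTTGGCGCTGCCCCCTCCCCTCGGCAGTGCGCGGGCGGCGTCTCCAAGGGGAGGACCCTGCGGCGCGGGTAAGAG
Col4a4, chr1:82586800-82587099, minus strand: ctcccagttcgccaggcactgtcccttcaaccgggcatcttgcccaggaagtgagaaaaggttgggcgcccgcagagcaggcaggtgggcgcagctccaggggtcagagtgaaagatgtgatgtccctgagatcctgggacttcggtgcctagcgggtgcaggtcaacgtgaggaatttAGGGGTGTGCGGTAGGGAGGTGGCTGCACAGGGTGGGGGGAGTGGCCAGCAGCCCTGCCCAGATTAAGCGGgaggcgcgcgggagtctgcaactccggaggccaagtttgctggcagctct

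The windows were rich in G and C, at 74.0%, 73.7% and 63.3% against a median of 52.7% over 32851 promoters of the same length. The letters TATAAA, searched on both strands, occurred in none of the 3 windows, in 13.6% of all promoters and in 5 of the 35 collagen promoters of the table. GGGCGG occurred 1 time in the Col4a1 window and 3 times in the Col4a2 window, not in the Col4a4 window, in 35.7% of all promoters and in 22 of the 35 collagen promoters. CCAAT occurred 1 time in each of the Col4a1 and Col4a2 windows, not in the Col4a4 window, in 37.4% of all promoters and in 13 of the 35. A match is a run of letters and not a shown site of binding.

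Paired chains were counted in similar numbers in some pairs and not in others. The ratio of Col4a1 to Col4a2 UMIs had a median over mice of 1.18 in interstitial, 1.30 in Leydig, 1.28 in myoid and 1.08 in endothelial cells, over mice with at least 10 UMIs of each gene. In Sertoli cells the ratio was 2.76 and 2.91 in the 2 control mice with that many UMIs and 0.902 to 1.48 in the 5 cKO mice. Col4a4 exceeded Col4a3 in 9 of 9 mice in interstitial cells, by a ratio of 2.86 to 3.31, and in 7 of 7 mice in myoid cells, by 1.25 to 2.25. It also did in 8 of 8 mice in Leydig and 9 of 9 in Sertoli cells, but in endothelial cells only in 3 of 5, at 0.576 to 1.7. Col4a5 exceeded Col4a6 by a median ratio of 2.71 in interstitial cells and 2.65 in Leydig cells. The type I pair differed most between types. The ratio of Col1a2 to Col1a1 was 1.77 to 2.52 in interstitial cells and 9.36 to 24.2 in Leydig cells, and these ranges did not overlap. For the type VI pair, Col6a1 to Col6a2, the ratio was 1.89 to 2.93 in interstitial cells and 5.89 to 16.2 in Leydig cells. A ratio between 2 genes also depends on how well each 3′ end is captured.

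**Figure D3:**
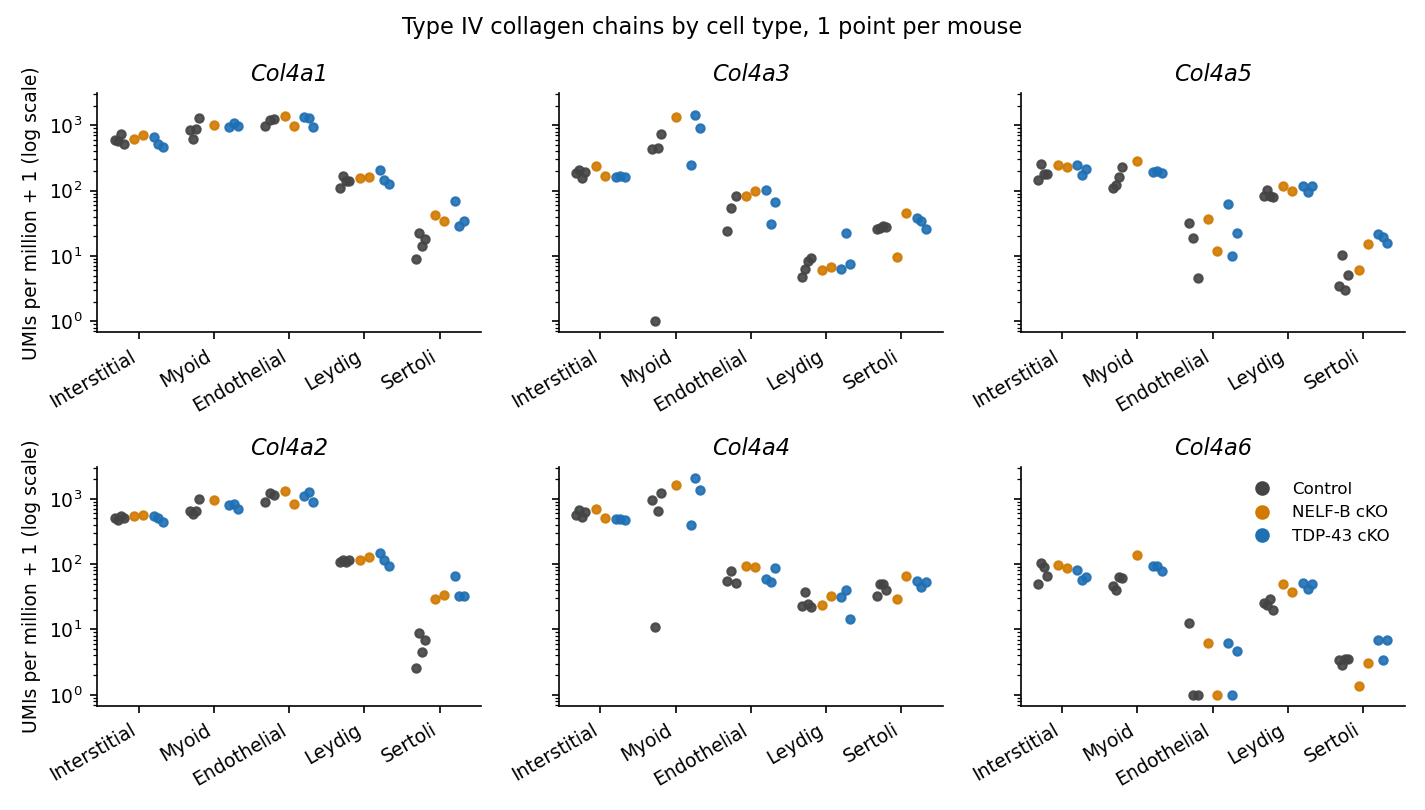
Levels of the 6 type IV chain genes (CPM plus 1, log axis), 1 panel per gene, in the 5 somatic cell types, with 1 point per mouse with at least 10 cells of the type and colours by genotype. Col4a1 and Col4a2 show the same order of types, whereas Col4a3 and Col4a4 in myoid cells spread from 0 and 9.94 CPM in control replicate 2 to 1427 and 2093 CPM in TDP-43 cKO replicate 2.

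To ask whether loss of either factor in germ cells went with a change of collagen genes in somatic cells, summed counts were compared between genotypes by the quasi-likelihood test of edgeR, with p-values adjusted by Benjamini-Hochberg over all genes tested in the type and a call at an adjusted p under 0.05. Both cKO genotypes were compared with the same control mice. In interstitial cells none of the 26 collagen genes tested was called by edgeR in any of the 3 comparisons, and the share of all 10994 genes called was also 0%. At an unadjusted p under 0.05 there was 1 gene in NELF-B cKO against control, 0 in TDP-43 cKO against control and 1 in TDP-43 cKO against NELF-B cKO, where 4.72%, 20.4% and 6.09% of all genes were, and DESeq2 called 0 in each. The mice differed in the clusters that made up the interstitial class, and the split was not one of genotype alone. Median UMIs per kept barcode were 1754 to 6369 in control, 5165 and 17312.5 in NELF-B cKO and 14117 to 19254 in TDP-43 cKO libraries. A pair of clusters held 92.5% to 99.1% of interstitial cells in the control mice and 98.1% in NELF-B cKO replicate 1, but 1.51% in NELF-B cKO replicate 2 (6 of 398 cells), 0% in TDP-43 cKO replicate 1 and 6.77% and 8% in the other TDP-43 cKO mice, whose cells lay in 4 other clusters and a small one with Mki67 and Ube2c among its leading genes. Within the pair, the cluster of 363 cells was led by the spermatid genes Tnp2, Tnp1 and Prm1 among interstitial cells. The part of these clusters and of library depth in the comparison was not tested. Without NELF-B cKO replicate 2 that genotype kept only replicate 1, so no call between the cKO genotypes is given for that fit. The 14 genes of at least 100 CPM changed by -0.23 to 0.22 on the log2 scale in TDP-43 cKO and by -0.36 to 0.33 in NELF-B cKO mice. The lower end in NELF-B cKO was Col3a1, with an adjusted p of 0.877 by edgeR. The median over the 26 genes was 0.05 in TDP-43 cKO, against 0.04 over all genes. For 2 of the 26 genes, Col4a4 and Col20a1, the 3 TDP-43 cKO mice lay below all control mice (13.7% of all genes did), and for 0 they lay above (6.01% of all genes). Free RNA made an estimated 15.6% to 28.7% of interstitial UMIs in the control mice and 7.43% to 21.1% in the cKO mice, and with it subtracted edgeR again called 0 collagen genes in each comparison.

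Leydig cells gave no call at the threshold, though 4 collagen genes came near it in TDP-43 cKO. By edgeR the smallest adjusted p over all genes was 0.0562 there, the same as over the collagen genes. The share of all genes that came as near was not counted. Of 27 collagen genes tested, edgeR called 0 in each comparison, as it did 0% of all 13644 genes. At an unadjusted p under 0.05 there were 5 genes in NELF-B cKO and 6 in TDP-43 cKO against control, and 4 between the cKO genotypes. Of all genes 9.32%, 19.7% and 9.05% were. DESeq2 called 1, 4 and 1, but its share of all genes was not counted. The 6 of 27 in TDP-43 cKO are 22.2%, near the share of all genes, and they are named here for that p, after their values were seen. The interstitial markers in Leydig cells summed to 531 to 759.6 CPM in the control mice and 558 to 962 CPM in TDP-43 cKO, with 0 of the 4 above or below all control mice. Col25a1, a transmembrane collagen, stood at 4.78, 6.17, 5.92 and 1.82 CPM in the control mice, 6.63 and 7.52 CPM in the NELF-B cKO mice and 23.2, 38.2 and 16.4 CPM in the TDP-43 cKO mice. The TDP-43 cKO mice lay above the other 6 mice, at a log2 change of 2.41 (SE 0.36, adjusted p = 0.0562 by edgeR). Interstitial cells held 15.2 to 70.1 CPM of Col25a1. Free RNA held 3.76 to 13.1 CPM of it in control, 11.1 and 4.79 CPM in NELF-B cKO and 17.3, 21.7 and 26.3 CPM in TDP-43 cKO libraries. In TDP-43 cKO replicate 3 this was more than the Leydig cells held.

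Col4a6, a type IV chain of some basement membranes, stood at 24.8, 22.5, 28.1 and 19.1 CPM in the control mice, 49.4 and 36.3 CPM in the NELF-B cKO mice and 50.0, 41.1 and 49.3 CPM in the TDP-43 cKO mice in Leydig cells. Every cKO mouse of both genotypes lay above every control mouse. The log2 change was 1.01 in TDP-43 cKO (SE 0.16, adjusted p = 0.0562 by edgeR) and 0.87 in NELF-B cKO (SE 0.18, adjusted p = 0.408 by edgeR). Its neighbour Col4a5 changed by 0.38 in TDP-43 cKO, with an adjusted p of 0.128 by edgeR. Col11a1, a minor chain of fibrils, stood at 6.37, 9.26, 5.92 and 7.28 CPM in the control mice, 12.7 and 6.48 CPM in the NELF-B cKO mice and 18.8, 35.0 and 24.2 CPM in the TDP-43 cKO mice. The TDP-43 cKO mice were again the 3 highest. Its log2 change was 1.87 (SE 0.30, adjusted p = 0.0565 by edgeR). Col14a1, which attaches to fibrils, had a log2 change of 1.18 with an adjusted p of 0.131.

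Col22a1 was lower in Leydig cells of both cKO genotypes, at 34.4, 28.7, 30.6 and 24.6 CPM in the control mice, 19.3 and 17.5 CPM in the NELF-B cKO mice and 17.9, 16.7 and 20.7 CPM in the TDP-43 cKO mice. The log2 change in TDP-43 cKO was -0.66 (SE 0.16, adjusted p = 0.0643 by edgeR). RS, however, held 226 to 378 CPM of Col22a1 in the control mice, and the free RNA of the control libraries held 31.1 to 102 CPM against 8.45 to 19.3 CPM in the TDP-43 cKO libraries. The summed level of 6 germ cell genes in Leydig cells moved with it, from 136 to 232 CPM in the control mice to 40.5 to 104 CPM in TDP-43 cKO. Of the 6 genes, 4 lay below and 1 above all control mice. After subtraction of free RNA the change of Col22a1 was -0.29, with an adjusted p of 0.687 by edgeR. In all, 4 of 27 collagen genes lay above all control mice in TDP-43 cKO (5.8% of all genes did) and 2 below (12.7% of all genes). The median over the 27 genes was 0.24 on the log2 scale, against 0.03 over all genes. With either NELF-B cKO mouse left out of the fit, 4 of the 27 were called, but the share of all genes called in those fits was not counted.

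**Figure D4:**
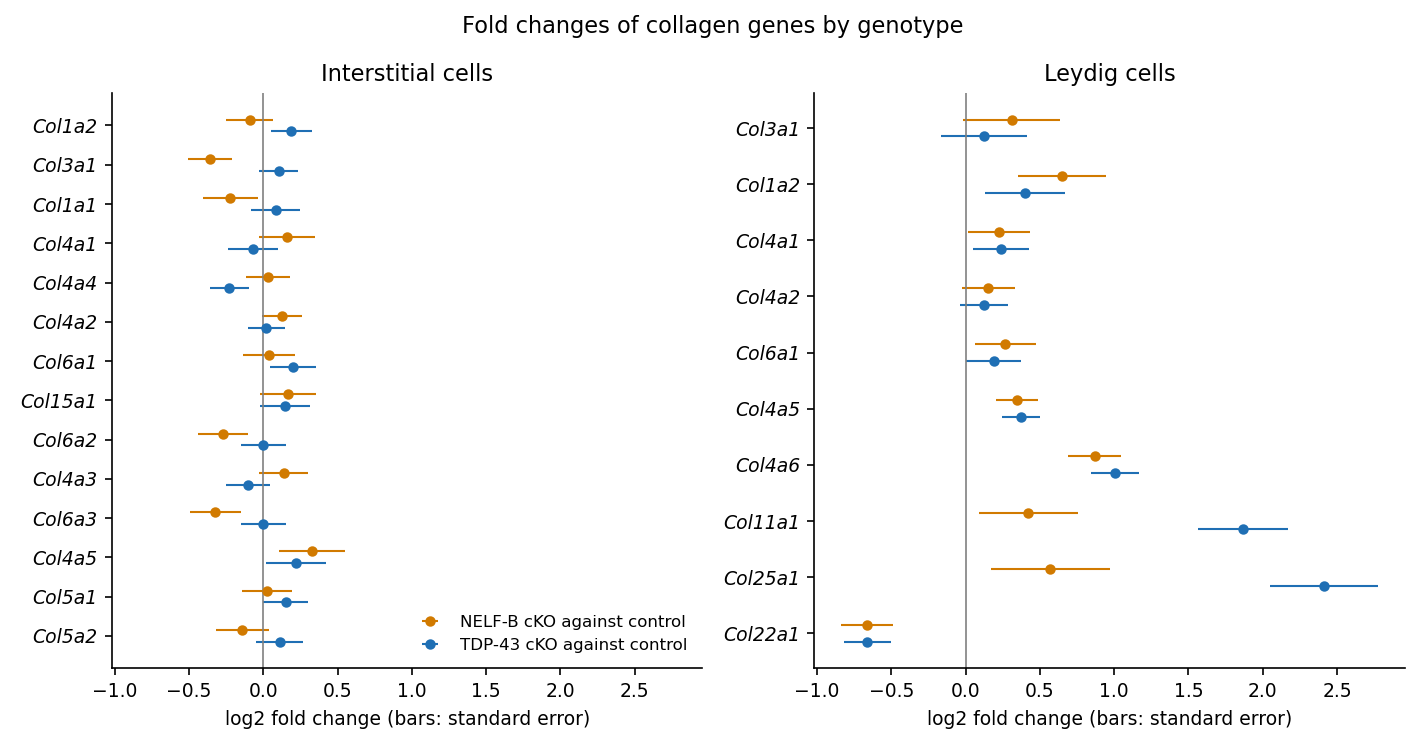
Log2 change against control by edgeR (points, with bars of 1 standard error) of the collagen genes of at least 100 CPM in interstitial cells (left) and of these and 5 others in Leydig cells (right), in NELF-B cKO and TDP-43 cKO. Interstitial changes lie between -0.36 and 0.33, and Col25a1 and Col11a1 reach 2.41 and 1.87 in TDP-43 cKO Leydig cells.

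Myoid cells allowed 1 comparison, since NELF-B cKO replicate 1 had 7 cells and was left out. None of 21 collagen genes tested was called by edgeR in TDP-43 cKO against control, where 0.959% of all genes were. At an unadjusted p under 0.05 there was 1 gene, where 9.56% of all genes were, and DESeq2 called 0. Without control replicate 4, edgeR called 1, but the share of all genes called in that fit was not counted. The gene of low p was Col6a3, with a log2 change of 0.66 (SE 0.29, adjusted p = 0.462 by edgeR). The 11 genes of at least 100 CPM changed by 0.15 to 1.08 on the log2 scale, the upper end being Col4a3, and the median over the 21 was 0.43 against 0.04 over all genes. As given above, the cluster rich in Col4a3 held 0 to 5 cells per control mouse and 4 to 12 per TDP-43 cKO mouse. The 4 interstitial markers in myoid cells summed to 383, 69.6, 163 and 641 CPM in the control mice, with Lum at 0, and to 316, 787 and 586 CPM in TDP-43 cKO, and 0 of the 4 lay above all control mice. Control replicate 2, the mouse with the least collagen in myoid cells, also had the lowest marker sum. The part of the cluster and of these markers in the values was not tested.

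Endothelial cells gave no call among 12 collagen genes tested, and control replicate 1 was left out of the fit. By edgeR the share of all genes called was 0% in each cKO genotype against control and 0.0453% in TDP-43 cKO against NELF-B cKO. At an unadjusted p under 0.05 there were 0 genes in NELF-B cKO, 3 in TDP-43 cKO and 2 between the cKO genotypes, where 4.23%, 5.57% and 5.5% of all genes were, and DESeq2 called 0, 1 and 0. Without NELF-B cKO replicate 1 edgeR called 1 in TDP-43 cKO against control, and without replicate 2 it called 2. The share of all genes called in those fits was not counted. All 3 genes of low p were chains of fibrils and filaments and not of the vascular basement membrane. Col1a1 stood at 42.9, 31.3, 6.00 and 21.4 CPM in the control mice, 56.3 and 11.0 CPM in the NELF-B cKO mice and 156, 97.1 and 94.6 CPM in the TDP-43 cKO mice. The TDP-43 cKO mice were the 3 highest, at a log2 change of 2.44 (SE 0.44, adjusted p = 0.0983 by edgeR). Col6a1 changed by 2.94 (SE 0.65, adjusted p = 0.160 by edgeR) and Col3a1 by 1.10 (SE 0.29, adjusted p = 0.273 by edgeR). The summed level of 4 interstitial marker genes in the same cells was 126 to 235 CPM in the control mice fitted, 748 and 22.1 CPM in NELF-B cKO and 655 to 1152 CPM in TDP-43 cKO, where 3 of the 4 lay above all control mice and Lum was at 0 in the control mice. Their part in the result was not tested. Col4a1, by contrast, changed by 0.07 on the log2 scale in TDP-43 cKO, and Col4a2 by 0.0019.

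Sertoli cells of TDP-43 cKO mice were where collagen genes passed the test. Of 26 genes tested edgeR called 1 higher (1.99% of all 15421 genes were) and 2 lower (3.07% of all genes), counts too small to set the collagen genes apart from that background. At an unadjusted p under 0.05 there were 14 genes (53.8%), 8 higher and 6 lower, where 32.8% of all genes were. DESeq2 called 12 of the 26, but its share of all genes was not counted. For NELF-B cKO against control and for TDP-43 cKO against NELF-B cKO edgeR called 0 genes, with 0% of all genes called, 4 collagen genes at an unadjusted p under 0.05 in each (11.7% and 3.86% of all genes were), and 1 and 0 called by DESeq2. In TDP-43 cKO the median over the 26 genes was 0.55 on the log2 scale, against -0.04 over all genes.

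The gene that rose was Col4a2, at 1.62, 7.74, 3.58 and 5.90 CPM in the control mice, 27.9 and 33.2 CPM in the NELF-B cKO mice and 64.5, 31.3 and 31.5 CPM in the TDP-43 cKO mice. All 5 cKO mice lay above all control mice. The log2 change was 3.01 in TDP-43 cKO (SE 0.41, adjusted p = 0.0385 by edgeR) and 2.55 in NELF-B cKO (SE 0.45, adjusted p = 0.317 by edgeR). Free RNA held similar levels of Col4a2, at 5.27, 8.65, 3.86 and 6.78 CPM in the control libraries, 11.4 and 51.6 CPM in the NELF-B cKO libraries and 88.1, 30.5 and 30.2 CPM in the TDP-43 cKO libraries. The estimated share of Sertoli UMIs from free RNA was 29.0% to 39.5% for control, 43.4% and 25.2% for NELF-B cKO and 25.6% to 32.2% for TDP-43 cKO. After subtraction of free RNA the change of Col4a2 was 3.12, with an adjusted p of 0.0485 by edgeR. The control counts were low, at 2, 33, 7 and 23 UMIs before the subtraction. After it 1 of the 9 mice was left with 0 UMIs of Col4a2 and the next lowest with 5. Its partner Col4a1 stood at 8.08, 21.3, 13.3 and 17.2 CPM in the control mice, 41.2 and 33.6 CPM in the NELF-B cKO mice and 67.7, 28.2 and 33.1 CPM in the TDP-43 cKO mice. It changed by 1.45 in TDP-43 cKO (SE 0.36, adjusted p = 0.0507 by edgeR), which did not pass the threshold, and by 1.00 after the subtraction (adjusted p = 0.206 by edgeR).

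The genes that fell were Col27a1 and Col16a1. Col27a1 (chr4:63214004-63334991, plus strand) stood at 29.1, 12.2, 23.5 and 16.7 CPM in the control mice, 14.9 and 8.86 CPM in the NELF-B cKO mice and 2.18, 3.93 and 3.81 CPM in the TDP-43 cKO mice. The TDP-43 cKO mice lay below the other 6, at a log2 change of -2.65 (SE 0.40, adjusted p = 0.0385 by edgeR). Free RNA held 0.56 to 3.31 CPM of Col27a1 in the 9 libraries, and after its subtraction the change was -3.02 with an adjusted p of 0.0485 by edgeR. Col16a1 (chr4:130047840-130099283, plus strand), which attaches to fibrils, stood at 10.5, 13.6, 9.71 and 7.43 CPM in the control mice, 8.17 and 2.88 CPM in the NELF-B cKO mice and 1.86, 2.76 and 2.92 CPM in the TDP-43 cKO mice. Its log2 change was -2.08 (SE 0.42, adjusted p = 0.0495 by edgeR). In all 9 libraries free RNA held more Col16a1 than the Sertoli cells did, at 23.7 to 57.6 CPM in the control and 8.99 to 18.3 CPM in the TDP-43 cKO libraries. After subtraction of free RNA, 7 of the 9 mice were left with 0 UMIs of Col16a1 and the other 2 with 6 each, too few to be tested.

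Col18a1, the leading Sertoli collagen, changed by 0.82 in TDP-43 cKO (SE 0.23, adjusted p = 0.0566 by edgeR), and its 3 TDP-43 cKO values lay above the 4 control values. Free RNA moved the same way, with 9.78 to 21.6 CPM of Col18a1 in the control and 61.0 to 79.6 CPM in the TDP-43 cKO libraries. The change was 0.73 after subtraction of free RNA (adjusted p = 0.0953 by edgeR) and -0.0403 within the shallowest Sertoli cluster (adjusted p = 0.957 by edgeR). Among the other low genes, Col4a5 changed by 1.88 (adjusted p = 0.0527 by edgeR) and Col6a4, a beaded filament chain, by -2.65 (adjusted p = 0.0504 by edgeR). In all 9 libraries free RNA held more Col6a4 than the Sertoli cells did, at 16.97 to 24.02 CPM in the control and 2.57 to 6.77 CPM in the TDP-43 cKO libraries, and after the subtraction 6 of the 9 mice were left with 0 UMIs of it and the others with 3 to 5. In all, 6 of 26 collagen genes lay above all control mice in TDP-43 cKO (16.8% of all genes did) and 6 below (23.3% of all genes), counts close to those shares. The dot plot of Sertoli levels shows the mice one by one.

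**Figure D5:**
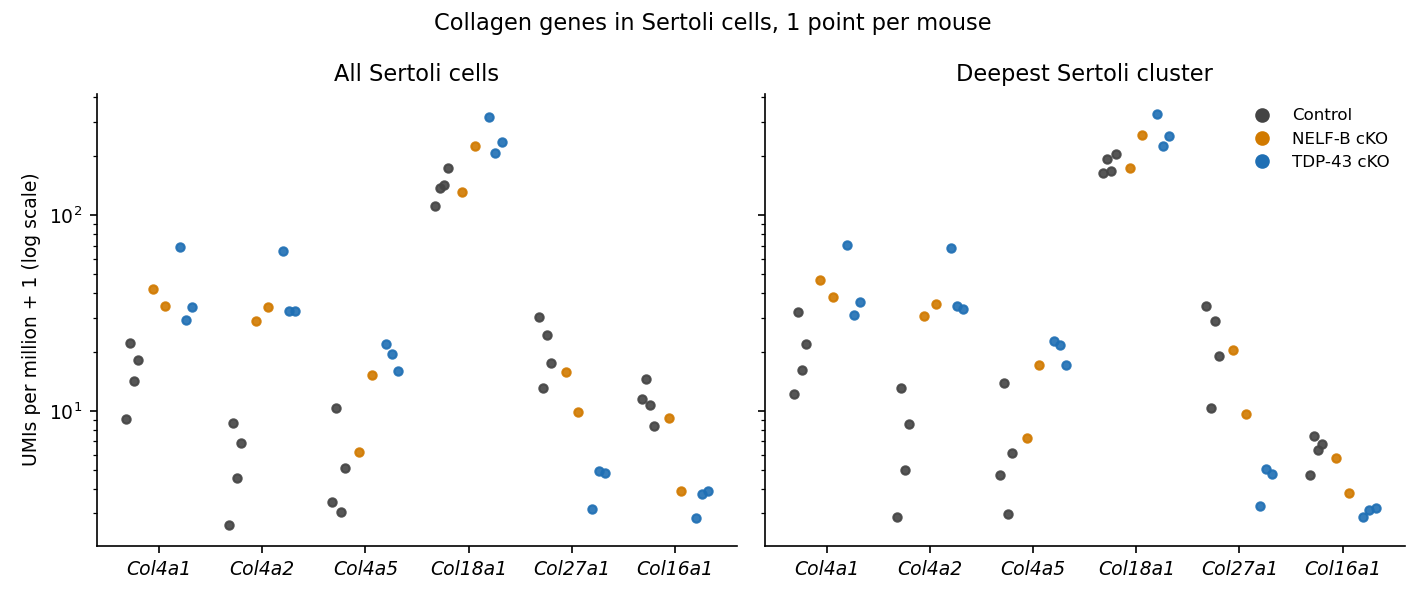
Levels of 6 collagen genes (CPM plus 1, log axis) in all Sertoli cells (left) and in the cells of the deepest Sertoli cluster (right), with 1 point per mouse and colours by genotype. In all Sertoli cells Col4a2 lies at 1.62 to 7.74 CPM in the control mice and 31.3 to 64.5 CPM in the TDP-43 cKO mice, and Col27a1 at 12.2 to 29.1 CPM against 2.18 to 3.93 CPM.

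Depth and cell make-up moved with the genotype in Sertoli cells. They fell into 3 clusters with median depths of 2189, 3638 and 34473 UMIs per cell. Cells of the deepest numbered 25, 58, 54 and 89 in control, 59 and 79 in NELF-B cKO and 396, 163 and 226 in TDP-43 cKO mice. Within its cells alone Col4a2 changed by 2.59 (adjusted p = 0.0415 by edgeR) and Col27a1 by -2.63 (adjusted p = 0.0463 by edgeR), while Col16a1 changed by -1.39 (adjusted p = 0.0846 by edgeR). In the deepest cells Col4a2 stood at 1.87, 12.2, 3.98 and 7.63 CPM in the control mice and at 66.8, 33.4 and 32.4 CPM in the TDP-43 cKO mice. The summed level of 4 interstitial marker genes in Sertoli cells was 11.3 to 14.8 CPM in the control mice, with Lum at 0, 50.1 and 53.4 CPM in NELF-B cKO and 12.7 to 68.7 CPM in TDP-43 cKO. For 6 Leydig markers it was 20.3 to 63.0, 122 and 459, and 57.5 to 183 CPM, and for 6 germ cell genes 399 to 576, 589 and 101, and 103 to 296 CPM. Myoid markers, 6 in all, summed to 18.6 to 31.9, 30.5 and 50.5, and 47.0 to 65.3 CPM. In TDP-43 cKO 1 of them lay above and 1 below all control mice. For 7 endothelial markers the sums were 9.71 to 12.9, 21.2 and 13.8, and 14.4 to 16.2 CPM, with 1 gene above and 0 below. Both sums lay above all control mice in TDP-43 cKO. So did that of 5 pericyte and vascular smooth muscle genes, at 8.53 to 11.5 against 2.04 to 7.27 CPM, with 1 gene above and 0 below. The 7 Sertoli markers summed to 4690 to 7606 CPM in control and 7600 to 9357 CPM in TDP-43 cKO, with 4 genes above and 0 below. The part of these in the 3 calls was not tested. Leaving out any 1 control or TDP-43 cKO mouse left 0 calls among the 26, and leaving out either NELF-B cKO mouse gave 11. The share of all genes called in those fits was not counted. With 1 mouse left out the changes kept their sign, at 2.61 to 3.38 for Col4a2, -2.79 to -2.34 for Col27a1 and -2.23 to -1.83 for Col16a1.

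The genes that act on collagen were followed as 5 lists of 19 enzymes and chaperones of collagen synthesis, 11 genes of processing and cross-linking, 15 partners in basement membranes, 9 receptors and 12 genes of degradation. In interstitial, Leydig, myoid and endothelial cells none of the tested list genes was called by edgeR in a comparison with control, and 0 to 5 genes of a list had an unadjusted p under 0.05, where 4.23% to 20.4% of all genes did. The highest counts were those of basement membrane partners in Leydig cells, at 5 of 11 in TDP-43 cKO (19.7% of all genes) and 4 of 11 in NELF-B cKO (9.32% of all genes). In Sertoli cells of TDP-43 cKO mice 2 of 16 tested synthesis genes and 1 of 6 receptors were called higher (1.99% of all genes were) and 1 of 13 basement membrane partners lower (3.07% of all genes were), and 0 of 7 processing and 0 of 5 degradation genes were called. At an unadjusted p under 0.05 there were 8 of the 13 basement membrane partners, 7 of the 16 synthesis genes and 2 genes of each other list, where 32.8% of all genes were. Fkbp10, a chaperone of collagen folding, stood at 8.89, 11.7, 7.16 and 12.6 CPM in the control mice and 41.0, 28.7 and 33.0 CPM in TDP-43 cKO, at a log2 change of 1.70 (SE 0.26, adjusted p = 0.0385 by edgeR). Nid1, which ties laminin to type IV collagen, stood at 38.0, 22.8, 39.4 and 31.5 CPM against 8.34, 13.4 and 14.2 CPM, at a change of -1.49 (SE 0.29, adjusted p = 0.0495 by edgeR). Ddr1, a receptor kinase for collagen, stood at 73.5, 68.3, 85.4 and 79.98 CPM against 170.9, 138.7 and 142.6 CPM, at a change of 0.94 (SE 0.17, adjusted p = 0.0481 by edgeR). P3h2, which hydroxylates prolines of type IV chains, had no UMI in the control mice and 3.19, 2.62 and 2.69 CPM in TDP-43 cKO (adjusted p = 0.0495 by edgeR). In NELF-B cKO against control edgeR called no list gene in Sertoli cells, where 6 of 13 basement membrane partners and 1 gene of each other list had an unadjusted p under 0.05 and 11.7% of all genes did. The NELF-B cKO mice nevertheless held Fkbp10 at 17.8 and 31.7 CPM and Ddr1 at 102 and 162 CPM, above all control mice. Nid1 stood at 15.2 and 10.3 CPM in them, below all control mice, and P3h2 at 0 and 0.62 CPM.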

How the data were processed

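Testes of 9 mice were profiled by 10x Genomics 3′ single-cell RNA-seq. The deposited matrices hold whole-number UMI counts per gene and barcode, not normalized, made by the authors with Cell Ranger (versions 6.1.1 and 7.0.0 are named in the submitters' processing notes) on build mm10, and include barcodes without cells. A barcode was kept (45132 in all) if it held more than 1000 genes and less than 10% of its UMIs were mitochondrial. Clusters (scanpy 1.11.5, Leiden resolution 0.8, collagen and list genes left out) were named from marker lists, and a second clustering of mixed somatic clusters was added after the clusters were seen. The groups follow the labels. Scrublet called 94 barcodes (0.208%), so doublets were not removed. UMIs were summed per mouse and type, and a mouse with fewer than 10 cells of a type was left out. The quasi-likelihood test of edgeR 4.0.16 (filterByExpr, TMM, all mice in 1 fit per type) was the test, with DESeq2 1.42.0 as an alternative, and the scripts were tested on simulated data. P-values measure the spread between mice. The standard error (SE) of a log2 change by edgeR was derived as its absolute value divided by the square root of the F statistic of that test. Genes were named with values if their control median reached 100 CPM, if they were called, or if they are partner chains. Col10a1, Col11a1, Col14a1, Col19a1, Col20a1, Col22a1, Col25a1, Col26a1 and Col6a4 fall outside this and were named after their values were seen. Of the partner lists only called genes were named. The collagen genes and all lists were chosen with earlier results of these data known. Other settings tried were size factors, filters, cell minimums, doublet scores, free RNA subtraction, resolution, thresholds, a replicate block and leaving out each mouse. Free RNA was estimated per library from 6 germ cell genes taken as absent from somatic cells.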

Additional observations from a re-analysis of the deposited data

Results flagged for a closer look

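In interstitial cells Col3a1 of control replicate 1 was 1439 CPM, far below the other 3 control mice. The summed collagen level of control replicate 2 in Leydig cells was 1940 CPM, far above the other 3 control mice, and the 4 interstitial markers in its Leydig cells also summed highest among them, at 759.6 CPM against 531 to 546 CPM. Col4a2 of control replicate 4 in myoid cells was 1008 CPM, also far above the rest of its group. A gap of this size relative to the range is met by chance in about 1 group in 20.

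In TDP-43 cKO against control, Col18a1 was higher in every mouse in Sertoli cells (log2 change 0.816) and lower in every mouse in Leydig cells. In TDP-43 cKO against NELF-B cKO, Col4a6 was higher in every mouse in Sertoli cells (log2 change 1.81) and lower in every mouse in interstitial cells. Neither difference between cell types was tested.

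The free RNA of NELF-B cKO replicate 2 held 819.7 CPM of collagen transcripts and that of TDP-43 cKO replicate 1 held 1226 CPM, against 252 to 304 CPM in the control libraries. These 2 libraries also had the largest numbers of interstitial and Leydig cells, at 398 and 906 cells in NELF-B cKO replicate 2 and 792 and 871 cells in TDP-43 cKO replicate 1.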

How the results depend on the processing

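Counts of called collagen genes changed with the processing. In Sertoli cells, TDP-43 cKO against control, 3 were called, and the count was 12 by DESeq2, 8 without the filter on low counts, 5 with cells of at least 2000 UMIs, 7 without called doublets, 11 without the highest doublet scores, 8 at resolution 1.2, 10 with only the 2 groups compared, 2 in the deepest Sertoli cluster, 0 in the shallowest, 0 at an adjusted p under 0.01 with a log2 change of at least 1, and 0 to 11 without 1 mouse. With the replicate number as a block it was 0, and the block changed no other count, each of which was 0 with and without it. The numbers were not taken as pairs, since same-numbered control and TDP-43 cKO mice, and NELF-B and TDP-43 cKO mice, correlated at -0.656 to 0.03 in interstitial, Leydig and Sertoli cells, whereas both pairs of control and NELF-B cKO mice, too few to decide, correlated at 0.089 to 0.464. In Leydig cells, TDP-43 cKO gave 4 calls by DESeq2, 4 without the filter, 3 without the highest doublet scores, 4 with only the 2 groups and 0 to 4 without 1 mouse, and DESeq2 gave 1 call in NELF-B cKO and 1 between the cKO genotypes. In endothelial cells, TDP-43 cKO gave 1 call by DESeq2, 4 without the filter, 1 with no minimum of cells, 2 with only the 2 groups and 0 to 2 without 1 mouse, and 1 between the cKO genotypes without the filter. Without the filter interstitial and myoid cells of TDP-43 cKO gave 2 calls each. Myoid cells gave 0 to 1 call without 1 mouse, and DESeq2 gave 1 call for NELF-B cKO Sertoli cells. The share of all genes called by DESeq2 or under the other settings was not counted, so these counts stand without a background. The cause of the differing counts was not tested, except that settings with fewer samples or more genes tested differ in that by construction. The control level of summed collagen moved to 12115 CPM in interstitial, 410.3 CPM in Sertoli and 4095 CPM in endothelial cells with free RNA subtracted, to 2540 CPM in myoid cells at resolution 1.2 and to 3668 CPM in endothelial cells with no minimum of cells. Col18a1 in TDP-43 cKO Sertoli cells turned from 0.82 to -0.0403 on the log2 scale in the shallowest cluster. Of the other named genes, 93 of 1096 changes under an alternative had the other sign, by at most 0.51 on the log2 scale, and 3 were called. The alternatives with only the 2 groups, the highest doublet scores left out and the Sertoli clusters were chosen after seeing the data. Depth limits the low genes most, since 3 UMIs of a type in a shallow mouse set its floor.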

Other observations

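Some collagen genes were led by germ cells. Col22a1, a chain found at tissue junctions, had its highest control median in RS, at 378, 226, 332 and 307 CPM in the control mice, 321 and 488 CPM in the NELF-B cKO mice and 266, 310 and 274 CPM in the TDP-43 cKO mice, although NELF-B cKO replicate 2 had 11 RS and TDP-43 cKO replicate 1 had 2. The ranges of the genotypes overlapped. Col6a4 was also highest in RS among the types named, at 52.5, 53.5, 47.6 and 49.4 CPM in the control mice. In SG Col25a1 stood at 27.6, 39.2, 44.3 and 49.2 CPM in the control mice, 23.9 and 36.3 CPM in the NELF-B cKO mice and 75.2, 57.2 and 59.8 CPM in the TDP-43 cKO mice, which lay above the other 6. Germ cells are the cells in which Cre acts, and these values were not tested here.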
